A study of Oncorhynchus kisutch with 82 samples.

Results

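Gill transcription was compared between river smolts and fall ocean fish of coho salmon (Oncorhynchus kisutch) from the Chilliwack stock in 2008. The fish were chosen by the stock region, year and season given in the labels, and not by any measured value. They number 21 of the 82 fish of the series, 15 smolts and 6 fall fish, and each fish has an array of its own. The comparison spans the passage from river to sea with stock and year held constant.

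The gill of a salmon exchanges gases and also regulates salt. In fresh water its ionocytes take up ions from dilute water, and in the sea they secrete the excess, powered in large part by the sodium pump Na+/K+-ATPase. Smoltification is the change in the river that prepares this switch, together with silvering and seaward migration. The deposited tables identify spots by array ID, and the gene table at hand lists none of these IDs. The results below are therefore about numbered probes, and no statement on ion transport genes or on the markers of ionocytes, blood cells or mucous cells could be made from them.

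All 15 smolts were caught in the Chilliwack in fresh water. Of these, 8 were hatchery fish and 7 were wild. The hatchery smolts measured 12.5 to 14.1 cm in fork length, apart from fish 36 at 5 cm, and the wild smolts 9.1 to 12.1 cm. The fall fish measured 24.1 to 32.8 cm and weighed 188.9 to 432 g, against 1.72 to 24.2 g in smolts. Hatchery fall fish 793, 811 and 826 came from the capture area labelled mid_SoG and hatchery fish 836 from south_SoG, while wild fish 666 came from north_SoG and wild fish 1012 from WCVI. Stage goes with body size, place and season of capture in this design, and these cannot be told apart.

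Each array carried the amplified gill RNA of 1 fish in one dye and a pool of gill RNA from the series in the other. The deposited value is a log ratio of the 2 channels, taken here as log2. The labels and file headers state neither the log base nor which channel is the numerator, so "higher" and "lower" refer to the deposited log ratio only. Among the 500 most variable probes with a value on all 82 arrays, the mean linear ratio over arrays had a median of 1.08 as deposited and 3.84 when inverted, and no direction was taken from this. In whole gill, fewer cells of a type and less RNA per cell cannot be told apart.

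The arrays differed in ways that bear on every probe. The SD of the log ratios over the probes of an array exceeded 1.3 in smolts 3, 4, 5, 7, 8, 93 and 100 and in fall fish 1012, called wide-spread arrays below. It ranged from 1.33 to 1.64 in these 7 smolts, from 0.71 to 1.19 in the other 8 smolts, and from 0.75 to 1.33 in fall fish. Wide-spread smolts had 12805 to 28877 values, the other smolts 21880 to 28380 and fall fish 23169 to 25141. The wide-spread smolts were 12.1 to 13.7 cm long with a median of 12.8 cm, against 5 to 14.1 cm with a median of 10.4 cm in the others. Array spread thus went with length among smolts, and fits without the wide-spread arrays also leave out most of the longer smolts. The part of length in those fits was not tested. Mean array SD was 1.14 in smolts and 0.95 in fall fish, with p = 0.181 in a two-sided exact permutation test of the means over 54264 regroupings.

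A control spot outside the probes compared was high on the wide-spread smolt arrays, but not on that of fall fish 1012, at -0.58. The spot GE_BrightCorner had log ratios of 0.75 to 4.95 on the 7 wide-spread smolt arrays and 3.53 on that of smolt 1. On the other 7 smolt arrays it lay between -0.65 and 0.11, and on fall arrays between -0.96 and 0.04. Its mean was 1.26 in smolts and -0.44 in fall fish, with p = 0.0244 in the same exact permutation test and 0.0977 after Benjamini-Hochberg adjustment over 4 array measures. This spot and DarkCorner were taken up after the data were seen, which the adjustment does not cover. The control spot E1A_r60_3, not tested, lay at 0.50 to 0.92 on fall arrays and -0.29 to 0.49 on the 8 smolt arrays not wide-spread. On 5 wide-spread smolt arrays it ran from -0.32 to 1.57. The spots E1A_r60_a20, E1A_r60_a22 and 3xSLv1 overlapped between these groups. The spot DarkCorner averaged 1.16 on wide-spread smolt arrays and -0.38 on the other smolt arrays, and was positive in fall fish 836, at 0.80, and 1012, at 1.01. The 5 arrays in position 4 of their slide, smolts 1, 3, 5 and 7 and fall fish 1012, had SDs of 1.19 to 1.43. What these array differences contribute was not tested beyond refits without the arrays in question, and, over all 21 fish, fits with GE_BrightCorner or DarkCorner as a covariate, with array weights or with arrays scaled to 1 SD. These fits made 1656, 3407, 7008 and 4816 calls in that order, against 4530 in the fit given below.

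**Figure D1:**
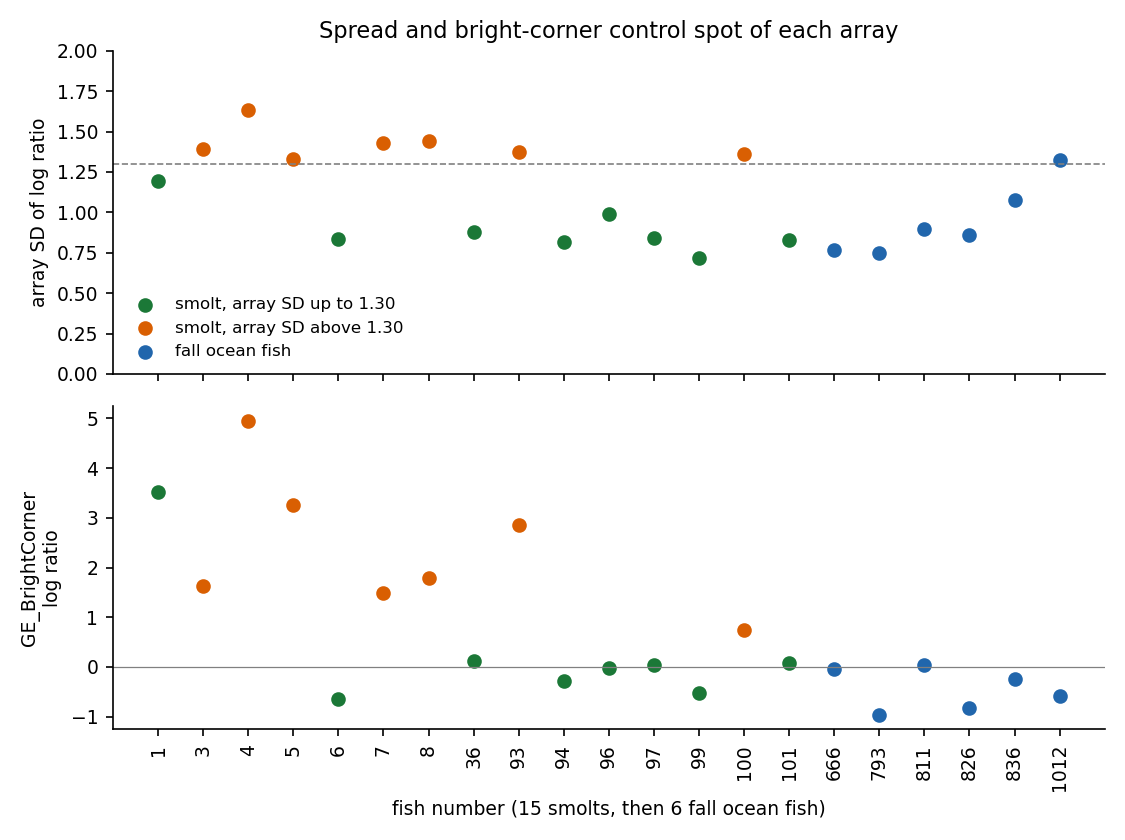
Array SD of the deposited log ratio (upper panel) and log ratio of the control spot GE_BrightCorner (lower panel) for each of the 21 fish, with a dashed line at an SD of 1.3. Smolts 1, 3, 4, 5, 7, 8, 93 and 100 have control spot values of 0.75 to 4.95, while the other 7 smolts and the 6 fall fish lie between -0.96 and 0.11.

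Smolts and fall fish separated on the first principal component of the 8906 probes with a value in all 21 fish, except where fall fish 1012 fell among the smolts. This component held 43.2% of the variance. The wide-spread smolts lay at -78.9 to -52.9, the other smolts at -31.6 to 42.1 and the fall fish at 30.3 to 77.8. Smolts 6, at 42.1, and 99, at 39.1, therefore lay beyond fall fish 1012, at 30.3. The component orders the wide-spread smolts, the other smolts and the fall fish in turn, so stage and array spread both run along it.

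Among the fall fish, 836 and 1012 resembled each other more than they resembled the other 4. Pearson's r over these probes was 0.790 between fish 836 and 1012, which came from the areas labelled south_SoG and WCVI. The other 4 fall fish had r of 0.563 to 0.789 with each other, and -0.044 to 0.638 with fish 836 or 1012. Pairs of smolts had r of 0.226 to 0.896 with a median of 0.574, and pairs of a smolt and a fall fish -0.105 to 0.556 with a median of 0.197. Among wide-spread smolts alone r ran from 0.574 to 0.896. These correlations are across probes and share the pooled reference channel. On the second component, with 19.4% of the variance, fish 836 lay at -36.1 and fish 1012 at -80.5, while the other fall fish lay at 12.5 to 43.9. Fish 836 and 1012 were also the 2 longest fall fish, at 28.2 and 32.8 cm. Their arrays had the widest spread of the fall arrays, with SDs of 1.08 and 1.33, against 0.75 to 0.90 in the other 4. Which of area, length or array spread goes with their likeness was not tested.

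**Figure D2:**
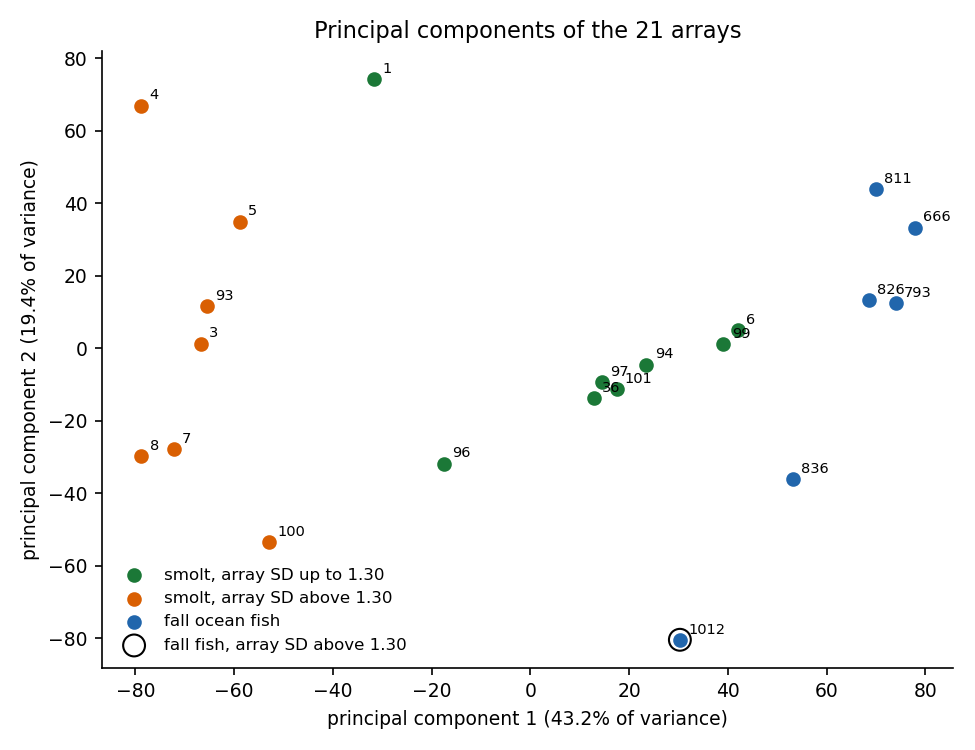
First and second principal components of the 21 arrays over 8906 probes, with axes giving the percent of variance and labels the fish number. The 7 wide-spread smolts sit at the left, the other smolts in the middle and the fall fish at the right, with fall fish 836 and 1012 below the other 4.

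Large differences between stages were carried by both directions of the ratio, and the probes lower in fall fish were the more numerous. In limma with origin as a covariate, 4530 of 21079 probes tested (21.5%) were called at an adjusted p below 0.05. Of these, 1851 were higher and 2679 lower in fall fish. At least 2-fold, if the values are log2, were 1070 of the higher and 2157 of the lower probes. The median difference of all probes tested was -0.07, and the median size among called probes was 1.24.

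The 4 probes named here were called with all 21 fish, without fish 36 and without the wide-spread arrays, and had 1 sign in hatchery and in wild fish. They have the 2 largest increases and the 2 largest decreases among such probes. Probe C092R076 showed the largest decrease. Its log ratio in smolts ran from -0.32 to 4.75 with a median of 1.54, and in fall fish from -3.84 to -1.29 with a median of -3.31. Every fall fish lay below every smolt. The wide-spread smolts averaged 2.85 ± 1.69 (SD, n = 7) and the other smolts 0.93 ± 1.06 (SD, n = 8), so part of the size came with the wide-spread arrays. The fitted difference, fall minus smolt, was -4.94 ± 0.65 (SE, adjusted p = 6.63e-05 in limma), and -3.91 ± 0.58 without those arrays (adjusted p = 0.00536 in limma).

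Probe C247R033 behaved alike, with an overlap of 1 fall fish. Smolts ran from -0.66 to 4.62 with a median of 1.82, and fall fish from -4.50 to -0.08 with a median of -2.83. Fall fish 811, at -0.08, lay above smolts 6, at -0.42, and 94, at -0.66. The difference was -4.93 ± 0.63 (SE, adjusted p = 4.48e-05 in limma), and -4.17 ± 0.82 without the wide-spread arrays (adjusted p = 0.0174 in limma). Its 2 wild fall fish, at -4.50 and -4.38, lay below the 4 hatchery fall fish, at -3.81 to -0.08.

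In the other direction, probe C010R109 was higher in fall fish. Smolts ran from -5.25 to -0.66 with a median of -3.10, and fall fish from -0.90 to 2.25 with a median of 0.09. Smolt 1, at -0.66, was the only smolt to reach the fall range, above fall fish 666 at -0.90 and 793 at -0.87. Fall fish 836 and 1012, which stood apart from the others over all probes, had the highest values, 2.06 and 2.25. Wild smolts averaged -4.27 ± 0.97 (SD, n = 7) and hatchery smolts -2.26 ± 0.93 (SD, n = 8). The difference between stages was 3.46 ± 0.54 (SE, adjusted p = 0.000324 in limma), and 3.01 ± 0.56 without the wide-spread arrays (adjusted p = 0.0142 in limma). With the 3 fall fish of mid_SoG alone it was 2.02 (adjusted p = 0.0269 in limma), and without fish 836 and 1012 it was 2.41 (adjusted p = 0.00296). Wide-spread smolts averaged -2.57, nearer to the fall fish than the other smolts, at -3.75. The wide-spread arrays include fall fish 1012, and without that fish alone the difference was 2.79 (adjusted p = 0.000806 in limma). It was 4.43 without the smolts of high GE_BrightCorner (adjusted p = 0.00133 in limma). With that spot as a covariate it was 4.44, and with DarkCorner 4.08.

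Probe C061R085 was higher in fall fish too. Smolts ran from -3.64 to 0.72 with a median of -2.14, and fall fish from 0.26 to 2.68 with a median of 1.69. The 2 wild fall fish, 666 at 0.26 and 1012 at 0.37, were the lowest, and smolts 1, at 0.72, and 6, at 0.56, lay above both. All other smolts were at -1.76 or below. The difference was 3.38 ± 0.46 (SE, adjusted p = 8.37e-05 in limma), and 2.80 ± 0.61 without the wide-spread arrays (adjusted p = 0.0236 in limma). Without fish 36, at -3.44, as well as the wide-spread arrays it was 1.94 ± 0.34 (adjusted p = 0.0208 in limma), and fish 36 had the lowest value of the smolts outside the wide-spread arrays.

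**Figure D3:**
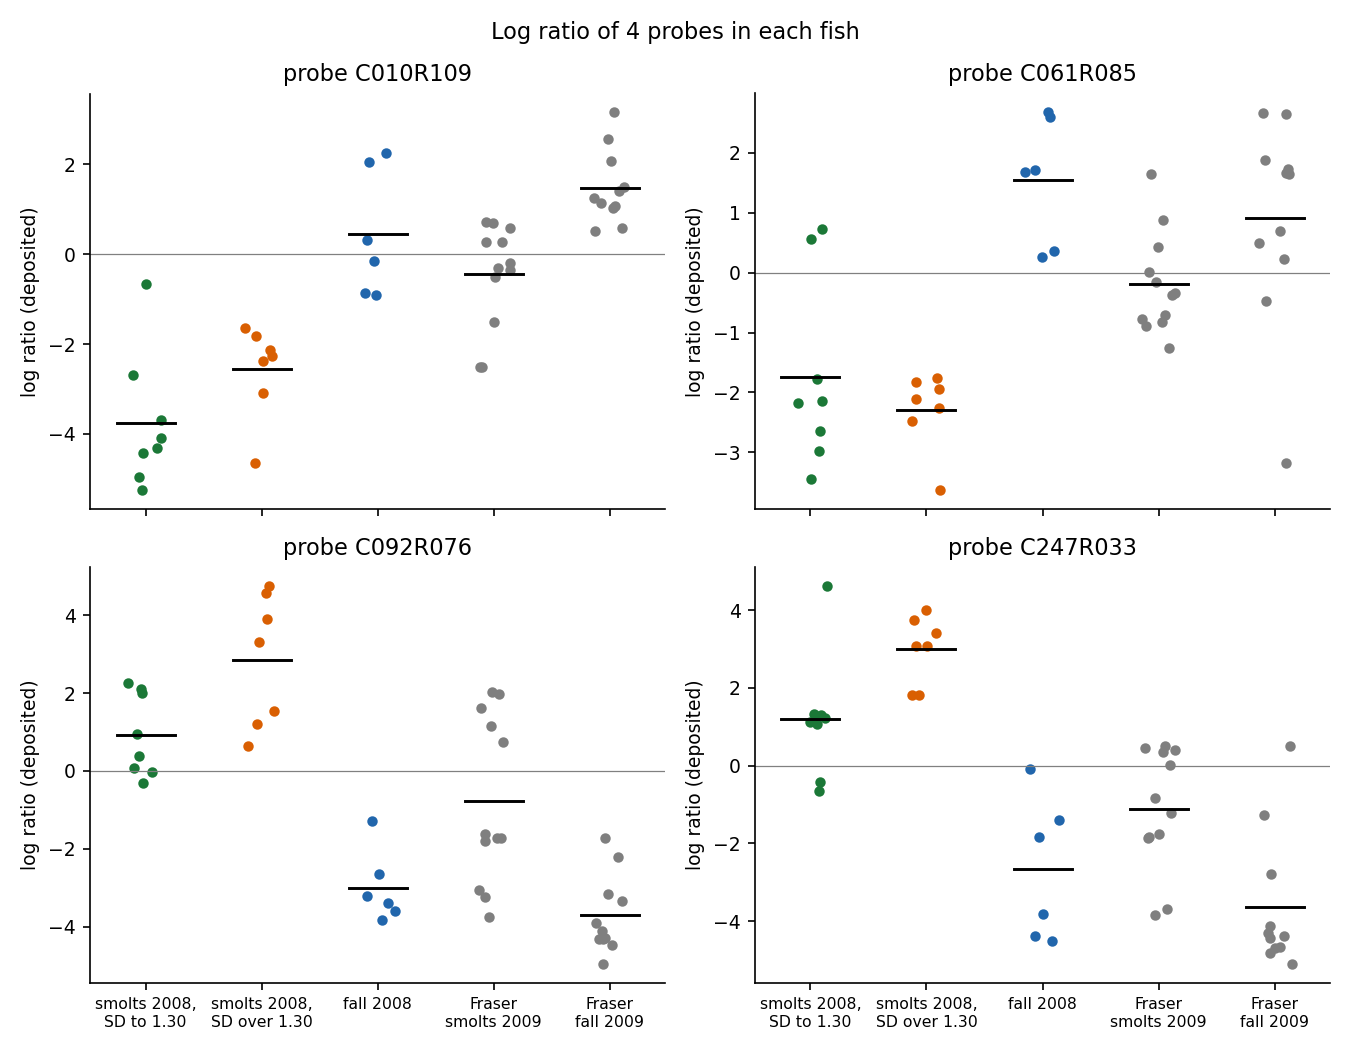
Deposited log ratio of the 4 named probes in each fish, with horizontal bars at group means, for Chilliwack smolts of 2008 by array SD, Chilliwack fall fish of 2008, and Fraser smolts and fall fish of 2009. In C092R076 every Chilliwack fall fish, at -3.84 to -1.29, lies below every Chilliwack smolt, at -0.32 to 4.75.

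The number of calls depended on which fish were left out, and the fits below also hold fewer fish. Without fish 36, 4789 of 21374 probes (22.4%) were called, with 4319 of the 4530 among them. After the wide-spread arrays were removed, 8 smolts and 5 fall fish remained and limma made 1046 calls among 22913 probes (4.57%). Of these, 416 were higher and 630 lower, and 978 belonged to the 4530. The median size of the 4515 probes fitted in both went from 1.24 to 0.88, and all kept their sign, which is largely built in because the fits share fish. Without both, 313 calls remained among 22597 probes (1.39%), with 100 higher and 213 lower. That fit holds 12 of the 21 fish, and the part of fewer fish in the count was not tested. Without the 8 smolts of high GE_BrightCorner, a choice made after its values were seen, 1269 of 22634 probes were called, and 4482 of 4518 kept their sign. The fits with all fish, without fish 36 and without the wide-spread arrays had 959 calls in common, 359 higher and 600 lower in fall fish.

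The same contrast was looked at where every fish had a value and with no model. Of the 8906 probes present in all 21 fish, 261 (2.93%) had values in fall fish and smolts that did not overlap, 95 higher and 166 lower in fall fish. Without the wide-spread arrays it was 806 of 16930 probes (4.76%), 353 higher and 453 lower. With fewer fish, ranges separate more readily, so these shares are not comparable with each other.

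The lists of 359 and 600 probes gave a per-fish summary, which describes fish that chose the lists and carries no test for them. Over the 359 probes the median log ratio of a smolt ran from -2.22 to -0.15, and that of a fall fish from -0.19 to 0.68. Only fall fish 1012, at -0.19, was below 0, and it lay just below smolt 1, at -0.15. Over the 600 probes smolts ran from 0.31 to 1.92 and fall fish from -0.90 to -0.30, with no overlap. Smolts of the wide-spread arrays had the stronger values, with medians over fish of -1.47 and 1.53, against -1.07 and 0.62 in the other smolts. Fish 36 lay within the range of the other smolts, at -1.19 and 1.06. The median over all probes of these arrays lay between -0.142 and 0.022.

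Fraser-stock fish, which the lists did not use, were set beside them. The 12 Fraser smolts of 2009, caught in rivers labelled salmon and chehalis, ran from -0.43 to 0.12 over the 359 probes and from -0.41 to 0.27 over the 600. All 15 Chilliwack smolts lay beyond that range over the 600 probes, and 14 of the 15 over the 359, which the choice of probes by these smolts largely fixes. The 11 Fraser fall fish of 2009 had medians over fish of 0.23 and -0.53. Those of the 7 Fraser fall fish of 2008 were 0.46 and -0.96, beside 0.49 and -0.75 in the Chilliwack fall fish. Over the 359 probes Fraser fall fish ran from -1.82 to 0.48 in 2009 and from -0.48 to 0.63 in 2008. Over the 600 they ran from -0.92 to 0.27 and from -1.06 to -0.08. Fish 3020 of 2009 (-1.82 and 0.27) and fish 922 of 2008 (-0.48 and -0.08) lay farthest from the Chilliwack fall fish. These values are a description, and the stocks were not compared by a test on them. No Fraser smolts of 2008 were analysed here, so year and stock cannot be told apart among smolts.

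**Figure D4:**
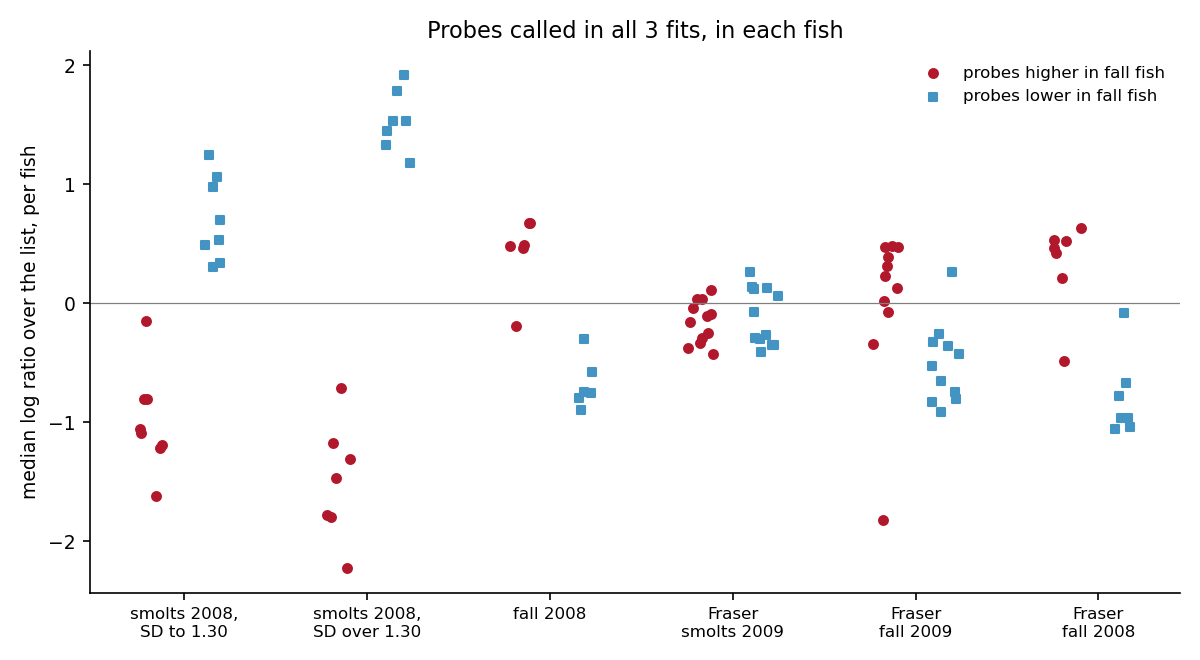
Median deposited log ratio per fish over the 359 probes higher (circles) and the 600 probes lower (squares) in Chilliwack fall fish of 2008, by group of fish. Chilliwack smolts reach -2.22 and 1.92, while Fraser smolts of 2009 stay between -0.43 and 0.27.

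Hatchery and wild fish were fitted apart to see whether the stage difference held within an origin. In 8 hatchery smolts and 4 hatchery fall fish limma made 2507 calls among 18366 probes (13.7%), with 910 higher and 1597 lower. In 7 wild smolts and 2 wild fall fish it made 88 calls among 21167 (0.416%), with 20 higher and 68 lower. These fits share no fish. Across the 17671 probes fitted in both, which are not independent replicates and share the pool, their differences had r = 0.677 and rho = 0.656. All 4 named probes were called in each origin, with differences in hatchery and wild fish of 2.60 and 4.95 for C010R109, 3.71 and 2.83 for C061R085, -4.84 and -5.12 for C092R076, and -4.44 and -5.77 for C247R033. The choice of these probes from the same fish, with 1 sign required in each origin, largely fixes this. Without the wide-spread arrays, which leaves hatchery smolts 1, 6 and 36, limma called 0 of 22585 probes in hatchery fish, with 2462 at an unadjusted p below 0.05.

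Whether the stage difference depended on origin was tested by an interaction term. In limma 0 of 17671 probes were called, with 597 at an unadjusted p below 0.05 and a lowest adjusted p of 0.994. The median SE of this term was 0.64, against 0.31 for the stage difference itself, and the wild fall fish were only 2. The largest of the named probes' interaction terms, wild minus hatchery, was 2.35 ± 1.03 (SE) for C010R109. Without the wide-spread arrays, which leaves 1 wild fall fish whose spread is taken to be that of the others, the limma fit made 0 calls among 21127 probes, and the unadjusted p was below 0.05 at 921. Without these and fish 36 it made 16 calls among 21835, with 15 terms above 0 (wild minus hatchery) and 1 below. Both fits, added after seeing the data, rest on fish 666 for the wild fall fish.

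Smolt 94 and fall fish 666 shared a slide, the only one with both stages. A fit without these 2 fish called 3788 probes, and the difference of fish 666 minus fish 94 had the same sign at 3185 (86.6%) of the 3679 where both fish had a value. Over all probes tested the share was 62.6%. The median size within the slide was 0.80, against 1.36 in the fit, and neither array was wide-spread. For the named probes the within-slide difference was 3.18 for C010R109, 3.25 for C061R085, -3.91 for C092R076 and -3.84 for C247R033. It rests on 1 pair of fish. With slide as a fixed block, which uses this pair alone for the stage difference, 11 of 20470 probes were called and none of the 4 named probes. With slide as a random block 4016 of 21079 were called, and all 4 named probes kept their calls, which their choice in the same fish largely fixes.

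The stage difference of Chilliwack fish in 2008 was set against that of Fraser fish in 2009. In 12 Fraser smolts and 11 Fraser fall fish of 2009, limma called 882 of 22757 probes (3.88%), 393 higher and 489 lower. Of the 4508 Chilliwack-called probes fitted there, 2442 (54.2%) had the same sign, with 362 (8.03%) called in the same and 20 in the opposite direction. Over all probes fitted in both, 51.3% had the same sign, with 710 (3.45%) called in Fraser fish in the same and 147 in the opposite direction. Of the 959 probes called in all 3 Chilliwack fits, 954 were fitted in Fraser fish and 680 (71.3%) had the same sign. Of the 954, 209 (21.9%) were called in the same and 1 in the opposite direction. The median size of these 954 was 1.76 in Chilliwack fish and 0.39 in Fraser fish. They were chosen by their Chilliwack calls, which favours large values in Chilliwack fish, while no Fraser fish entered the choice. Over all 20589 probes fitted in both, the medians were 0.45 and 0.25.

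Of the named probes, 3 were called in Fraser fish with the same sign. The Fraser difference was 1.91 ± 0.37 (SE, adjusted p = 0.00393 in limma) for C010R109, -2.90 ± 0.64 (adjusted p = 0.00961) for C092R076 and -2.54 ± 0.64 (adjusted p = 0.0239) for C247R033. For C061R085 it was 1.09 ± 0.50 (adjusted p = 0.222). In that probe Fraser fall fish 3020, whose array SD also exceeded 1.3, had -3.19, and the next lowest, fish 3188, -0.47. The medians were 1.65 in Fraser fall fish and -0.35 in Fraser smolts. Group means in Fraser smolts and fall fish were -0.45 and 1.48 for C010R109, and -0.78 and -3.71 for C092R076. Fraser smolts thus lay between the Chilliwack smolts, at -3.20 and 1.83, and the fall fish of these 2 contrasts. The Fraser fall fish of 2008, which are in neither contrast, averaged -0.81 for C010R109, below the Fraser smolts, and -4.00 for C092R076.

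Across 20589 probes, which are not independent, the Chilliwack and Fraser differences had r = 0.138 and rho = 0.0428. Leaving out the wide-spread arrays gave r = 0.345 and rho = 0.202 over 22252 probes. The difference of the stage differences, tested over 44 fish, was called at 3500 of 20589 probes (17.0%) in limma, 1433 higher and 2067 lower in the Chilliwack contrast. When the wide-spread arrays were left out, 379 calls among 22253 probes (1.70%) remained, 208 higher and 171 lower, so the balance turned. Year and stock cannot be told apart in this test, and 7 of the wide-spread arrays are Chilliwack smolts.

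**Figure D5:**
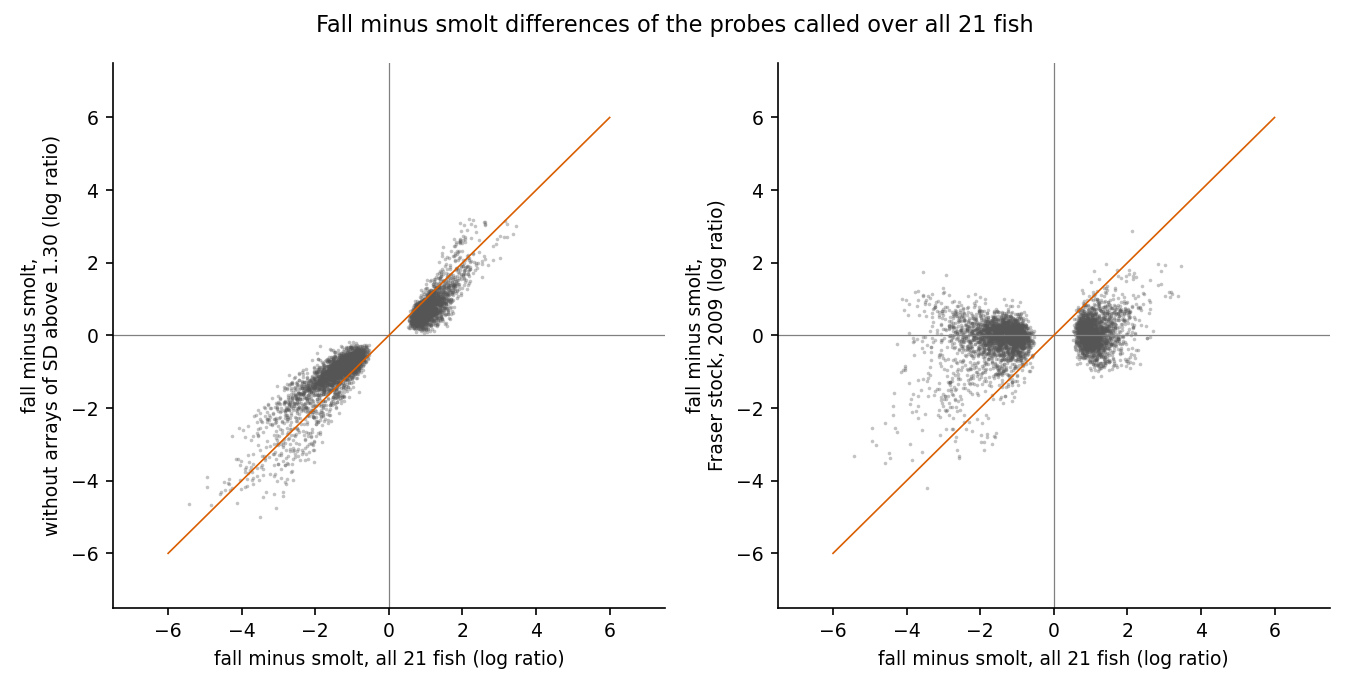
Fall minus smolt differences of the 4530 probes called over all 21 fish (horizontal axes) against those without the wide-spread arrays (left) and in Fraser fish of 2009 (right), in deposited log ratio units, with the line of equality. On the left all points keep their sign and most lie nearer to 0, and on the right 54.2% have the same sign.

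Among the probes named by this interaction, C211R125 kept its call without the wide-spread arrays. Chilliwack smolts ran from -4.06 to -0.88 with a median of -2.06, and fall fish from -1.17 to 1.69 with a median of 0.89. Fall fish 1012, at -1.17, lay within the smolt range. Fraser smolts of 2009 averaged 0.14 ± 0.47 (SD, n = 12) and Fraser fall fish -0.63 ± 0.75 (SD, n = 11). The Chilliwack difference was 2.35 ± 0.38 (SE) and the Fraser difference -0.77 ± 0.25, which gave an interaction of 3.18 ± 0.48 (adjusted p = 0.000172 in limma), and of 2.81 ± 0.39 without the wide-spread arrays (adjusted p = 0.000339 in limma).

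In the other 3 probes so named the wide-spread smolts averaged farther from the fall fish than the other smolts, as in C211R125. The ranges of wide-spread and other smolts overlapped. For C211R089 the interaction was -4.88 ± 1.10 (SE, adjusted p = 0.005 in limma), and -2.67 ± 0.99 without those arrays (adjusted p = 0.153). The 7 wide-spread smolts had log ratios of 3.50 to 7.39, and smolt 1 had 5.22. The 5 remaining smolts with a value lay between -0.15 and 1.26, within or near the fall range of -0.49 to 1.18. Without the 8 smolts of high GE_BrightCorner, the Chilliwack difference of C211R089 turned from -3.56 to 0.18 (adjusted p = 0.853 in limma).

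C046R088 had an interaction of -4.99 ± 0.91 (SE, adjusted p = 0.00158 in limma). Wide-spread smolts had 3.15 to 5.91, and smolts 1, at 5.75, and 99, at 8.05, were as high or higher. Smolts 94, 96 and 101 had -0.67 to 1.45, smolts 6, 36 and 97 had no value, and fall fish ran from -1.07 to 0.78. Without the wide-spread arrays the interaction was -4.47 ± 1.18 (adjusted p = 0.0465), and it rested on the 5 other smolts with a value. Without the 8 smolts of high GE_BrightCorner it was -3.37 (adjusted p = 0.114 in limma), with that spot as a covariate -3.61 (adjusted p = 0.0507), and without the wide-spread arrays and fish 36 the adjusted p was 0.0518. The Chilliwack difference of C046R088 went from -4.13 with all fish to -2.33 without the smolts of high GE_BrightCorner (adjusted p = 0.494 in limma). C141R114 had an interaction of 2.98 ± 1.04 (adjusted p = 0.0426), which fell to 1.76 ± 0.71 without the wide-spread arrays (adjusted p = 0.181). Its wide-spread smolts had -3.98 to -1.49 and its other smolts -1.93 to 1.16. The arrays left out include Fraser fall fish 3020 of 2009, at -7.52, against a Fraser fall median of 0.63. The part of this fish in the change was not tested. The call of C141R114 was also lost without any 1 of the Chilliwack fall fish 666, 793, 811, 826 or 836, with terms of 2.76 to 3.05.

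Whether a value was present or empty was tested between the stages, and no probe passed. Of the 43236 probes, 8906 had a value in all 21 fish and 6754 in none. Fisher's exact test called 0 of the other 27576 probes, with a lowest adjusted p of 0.127. Its unadjusted p was below 0.05 at 1138 probes (4.13%), of which 943 had values more often in fall fish and 195 in smolts. Probes with very few values or very few empty ones cannot reach that p. The share to be had without any difference therefore lies below that threshold, and it was not worked out. Wide-spread smolt arrays had a median of 16629 values against 24524 on the other smolt arrays, and the part of this in the balance was not tested. A single probe with a value in every fish of 1 stage and none of the other would have an adjusted p of 0.508 here, and 11 such probes would be needed for a call, so the 0 calls say nothing about stability. Probes C201R066 and C147R106 were 2 of 4 probes with a value in 15 of 15 smolts and 0 of 6 fall fish (unadjusted p = 1.84e-05, Fisher's exact test). In Fraser fish of 2009 C201R066 and C147R106 each had a value in 2 of 12 smolts, and in 2 and 3 of 11 fall fish. Among the 7 Fraser fall fish of 2008, C201R066 had one in 5 and C147R106 in 3. Probes C056R084 and C235R062 had a value in 6 of 6 fall fish and 1 of 15 smolts (unadjusted p = 0.000129, Fisher's exact test). In Fraser fish of 2009 they had one in 10 and 8 of 12 smolts and in 9 and 8 of 11 fall fish. Each had one in 4 of the 7 Fraser fall fish of 2008. The rule by which the authors left a value empty is not given in the sources used here, so an empty value cannot be read as a low level.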

How the data were processed

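Gill RNA of 21 fish was hybridised against pooled gill RNA, with fish and pool in 2 Alexa dyes that were never swapped, per the labels. RNA came from TRI reagent homogenates by MagMAX-96 and was amplified with Amino Allyl MessageAmp II-96, per the labels' protocols. The authors deposited a table of log ratios per spot, treated as a score because its log base is not stated, and taken as log2 here. A series table, also deposited by the authors and taken as log2, held the same values but lacked 17574 of smolt 6. How the arrays were scanned, corrected and normalized, and when a value was left empty, is not given in the sources used here. The number of arrays limits the precision.

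Tests used the 43236 probes and not the 60 control spots. Of the values of the 21 fish 48.8% were empty, and none was filled in. Array medians lay between -0.142 and 0.022. Testing required values in 50% or more of each group, with a minimum of 2 fish. Each difference, fall minus smolt, came from two-sided lmFit and eBayes fits (R 4.3.3, limma 3.58.1) with origin as covariate. The p-values were adjusted by Benjamini-Hochberg over all probes tested, and a probe was called below 0.05. The fits were tested on simulated data. These held independent normal values with no array or slide effects, so the check does not cover such effects. Each fish is a separate animal, and fish numbers pair nothing.

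Probes were named by rule, 2 in each direction. For the stage difference these had to be called with all fish, without fish 36 and without arrays of SD above 1.3, with 1 sign in hatchery and wild fish. For the interactions they were the largest terms called, and for empty values the lowest Fisher p, ties going to probes with more values. Members, rules and tests were chosen with earlier results of these data known. No gene name or probe sequence was at hand, so gene lists and cell type markers were not tested. Alternatives covered the fish, scaling, table, filter, slide, array position, weights, covariates and control spots.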

Additional observations from a re-analysis of the deposited data

Results flagged for a closer look

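Of 20 groups of fish tested for a value far from the others, 3 held one, where chance marks about 1 in 20. Fall fish 1012 had -2.30 for C141R114, against 0.33 for the next lowest Chilliwack fall fish. Fraser fall fish 661 of 2008 had -1.70 for C092R076 and -0.52 for C247R033, against -3.88 and -4.09 for the next highest. The stage difference, Chilliwack 2008 minus Fraser 2009, passed the interaction test for 5 named probes, at 2.39 for C061R085, 3.18 for C211R125, 2.98 for C141R114, -4.99 for C046R088 and -4.88 for C211R089. All but C061R085 were named for their calls in this test, so their passing was fixed by that choice. C061R085 was named for its large Chilliwack difference, which is 1 term of this test, so its choice favoured its passing too. Among all probes, 3500 of 20589 (17.0%) were called, and 379 of 22253 (1.70%) without the wide-spread arrays. Without those arrays C061R085, C141R114 and C211R089 were not called (adjusted p = 0.209, 0.181 and 0.153 in limma). Outside the probes compared, the control spots GE_BrightCorner and DarkCorner averaged 2.38 and 1.16 on the 7 wide-spread smolt arrays, against -0.44 and -0.35 on fall arrays.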

How the results depend on the processing

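The 4530 calls of the stage difference became 1046 without the wide-spread arrays, 313 without these and fish 36, 11 with slide as a fixed block (1 pair of fish), 7008 with array weights and 2606 with fall fish of mid_SoG only. Settings added after seeing the data gave 1269 without high GE_BrightCorner and 1656 with it as a covariate. The other 15 settings, such as quantile normalization (4631), the series table (5048) and slide as a random block (4016), stayed within 1.5 times, and leaving out single fish gave 3090 to 5156. The 4 named probes kept their sign in all 43 settings each. This is largely built in, because they were chosen by size and by calls in the same fish. They lost their calls only with slide as a fixed block, at 3.18, 3.25, -3.91 and -3.84 (adjusted p from 0.217 to 0.269). Hatchery fish alone went from 2507 to 0 without the wide-spread arrays. The 3500 calls against Fraser 2009 became 379 without the wide-spread arrays, 251 without these and fish 36, 342 without high GE_BrightCorner and 321 with it as a covariate, and 2353 to 4638 without single fall fish. The interaction of C061R085 was not called without the wide-spread arrays, at 1.80 (adjusted p = 0.209). The origin interaction gave 0 calls in each setting run except without the wide-spread arrays and fish 36 together, where it gave 16 on 1 wild fall fish, a setting added after seeing the data. The test of empty values gave 0 throughout, which says nothing of stability in so small a design. In hatchery fish alone, 8 smolts and 4 fall fish, the array SD differed by -0.37 (exact permutation p = 0.0424) and DarkCorner by -1.37 (p = 0.0404). These p-values were not adjusted over the array measures. No paired analysis was possible because the fish numbers are not shared between groups. The causes were not tested, and fewer fish enter most of these fits. Precision is limited by 6 fall fish, and signal over background was not analysed here.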

Other observations

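Chilliwack-stock fish at sea in 2009 were 2 and entered no comparison. Over the 359 probes higher in Chilliwack fall fish of 2008, spring fish 2134 had a median log ratio of 0.34 and fall fish 3232 of 0.49. Over the 600 lower probes they had -0.72 and -0.90. Spring fish 2134 measured 11.1 cm, within the range of the smolts' lengths, and its medians lay outside the range of the Chilliwack smolts of 2008. For C092R076 the values were -2.35 in fish 2134 and -4.68 in fish 3232, and for C010R109 0.51 and 2.13. In C061R085 fish 2134 had -0.04, between smolts 6 and 4, while fish 3232 had 3.28. With 1 fish for each season there is no spread to compare.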
